A study of Mus musculus with 17 samples.

Results

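The glycolysis and hypoxia response genes of the mouse lacrimal gland, the gland that secretes the watery part of tears, were followed across gland tissue and organoids, which are small epithelial structures grown from the gland in a gel matrix. The set held 36 genes named by symbol, and all 36 had a row in both count tables, among 38293 gene IDs in the table of gland and uncloned organoids and 55487 in the table of clones. Of the 36, 21 were glycolytic (2 transporters, 16 enzymes and 3 regulators) and 15 were other targets of the hypoxia response. The rule used symbols and no measured value, but the members were chosen with earlier results of these data known. Counts of members called are therefore not independent of these data.

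Glycolysis turns glucose into pyruvate in the cytosol, and lactate dehydrogenase turns pyruvate into lactate when it does not enter mitochondria. Hypoxia-inducible factors (HIFs) are transcription factors whose alpha subunits are hydroxylated by oxygen-dependent prolyl hydroxylases and then destroyed through the VHL ubiquitin ligase. When oxygen is low they accumulate, pair with Arnt and bind a short motif near genes of glucose uptake, glycolysis, vessel growth, pH control and mitophagy, many of which also respond to growth factors and stress.

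The motif searched here was ACGTG or GCGTG, the core of the HIF response element, on either strand (CACGT or CACGC on the other), in the 250 bases upstream of the annotated start in RefSeq, build GRCm38.p6. Taking the most upstream window of each gene, it was present in 26 of the 34 members with a window (76.5%), against 10442 of 27026 windows over all RefSeq genes (38.6%). Among glycolytic members 15 of 21 windows held it (71.4%), and among other hypoxia targets 11 of 13 (84.6%). Ldha and Bnip3 had 5 matches each, and Hk1, Gpi1, Aldoa, Tpi1, Eno2, Pkm, Vegfa and Mxi1 had 0 in that window. A match is a run of letters and not a measured binding site, and other parts of each gene were not searched. Every form of the motif contains CG, and the background was not matched to the members in CG content or expression. Whether members exceed promoters of a like kind was not tested. The windows of 4 members are shown because each stands for a pattern in the results below, with matches in capitals, written 5′ to 3′ on the strand of the gene. Ankrd37 (chr8:45999851-46000100, minus strand, 4 matches, a pair of them overlapping) had the largest rise that passed the test when uncloned organoids were differentiated. Pfkfb4 (chr9:108991652-108991901, plus strand, 1 match) rose in differentiated WT clones and was the sole member higher in clones labelled Pax6-KO, in EM. Ero1l (chr14:45318573-45318822, minus strand, 3 matches) fell with differentiation and was lower in clones labelled Pax6-KO. Mxi1 (chr19:53310256-53310505, plus strand, 0 matches) passed the test in neither of these comparisons.
Ankrd37: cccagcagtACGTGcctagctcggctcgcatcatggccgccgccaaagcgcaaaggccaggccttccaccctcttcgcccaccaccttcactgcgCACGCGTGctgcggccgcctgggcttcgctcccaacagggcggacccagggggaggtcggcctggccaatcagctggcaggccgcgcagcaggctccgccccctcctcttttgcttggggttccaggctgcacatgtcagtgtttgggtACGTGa
Pfkfb4: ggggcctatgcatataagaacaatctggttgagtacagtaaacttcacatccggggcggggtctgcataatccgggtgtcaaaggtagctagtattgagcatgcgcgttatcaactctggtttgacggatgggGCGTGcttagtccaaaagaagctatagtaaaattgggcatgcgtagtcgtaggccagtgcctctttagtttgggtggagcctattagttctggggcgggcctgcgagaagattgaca
Ero1l: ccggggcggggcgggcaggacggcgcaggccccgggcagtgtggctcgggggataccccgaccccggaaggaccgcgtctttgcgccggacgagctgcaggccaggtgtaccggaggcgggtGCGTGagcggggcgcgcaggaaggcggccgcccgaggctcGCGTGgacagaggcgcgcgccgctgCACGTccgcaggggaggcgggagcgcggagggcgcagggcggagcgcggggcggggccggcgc
Mxi1: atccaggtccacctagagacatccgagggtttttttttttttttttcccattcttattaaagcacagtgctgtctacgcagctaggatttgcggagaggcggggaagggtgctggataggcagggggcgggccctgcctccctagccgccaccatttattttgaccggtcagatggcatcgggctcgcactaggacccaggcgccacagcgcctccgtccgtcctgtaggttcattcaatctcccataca

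RNA was sequenced from 17 libraries in 7 groups. The uncloned organoids came from 3 lines, numbered 6, 7 and 8, and were sampled in differentiation medium (DM, n = 3) and in expansion medium (EM, n = 3), beside gland tissue carrying the same numbers (n = 3), all wild type. The clones were 2 lines labelled Pax6-KO and 2 WT lines, each grown from a single clone and each sampled in DM and in EM (n = 2 a group). Pax6 is a transcription factor of eye and lacrimal gland development. EM lasted 7 days; DM meant 2 days of EM followed by 5 days of DM according to the growth protocol, whereas the series text gives 7 days in each medium for the clones, so the clones' time in DM is uncertain. The strain, age and sex of the animals and the ingredients of the media were not given in the labels used. Total counts were 12801473 to 16751502 in DM, 14674166 to 16542195 in EM, 14144109 to 19207469 in gland, 18965633 to 19454717 in labelled KO clones and 18282059 to 22500534 in WT clones. Pax6 transcript did not separate the clones: the log2 fold change of labelled KO over WT was -0.23 ± 0.39 (SE) in EM (edgeR, adjusted p = 0.744) and -0.17 in DM (adjusted p = 0.831); a short change in the sequence would not show in such a count. Levels are counts-per-million (CPM) of a trimmed-mean-scaled library, and both tables were scaled apart, so levels were compared only within a table. By the labels each library of a group is its own numbered line, gland or clone, so p-values measure the spread between these. Whether the numbers stand for separate animals is not stated. The main fits also took the EM and DM libraries of a line or clone as independent. In the clones these deviated together from their group means (correlation 0.603 in WT and 0.507 in labelled KO clones). The spread behind labelled KO over WT thus counts each clone in both media.

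Together the 21 glycolytic genes took 1.82 to 2.00% of all counts in DM organoids and 2.10 to 2.23% in EM organoids, against 0.0460 to 0.0505% in gland. The 15 other targets took 0.597 to 0.639% in DM, 0.735 to 0.909% in EM and 0.0164 to 0.0180% in gland. The 10 most abundant genes held 65.5 to 67.6% of counts in gland, against 5.96 to 6.72% in uncloned organoids, which leaves less for other genes. The scaled CPM below allow for that. On that scale the glycolytic genes still summed to 11913 to 12823 CPM in DM and 12669 to 13725 in EM, against 1187 to 1247 in gland. Per kilobase of exon, the highest mean levels in DM organoids were those of Pkm (pyruvate kinase, 507 CPM per kb), Ldha (lactate dehydrogenase A, 501), Aldoa (aldolase A, 450) and Gapdh (427). In EM organoids Gapdh (537) and Aldoa (530) led, followed by Pkm (468) and Ldha (435). In gland the order was Aldoa (71.3), Tpi1 (triose phosphate isomerase, 51.6), Ldha (35.5) and Pkm (26.5). In the clones Aldoa led every group per kilobase, at 578 CPM per kb in labelled KO clones in DM, 630 in labelled KO clones in EM, 877 in WT clones in DM and 1017 in WT clones in EM, and Ldha came next in each.

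**Figure D1:**
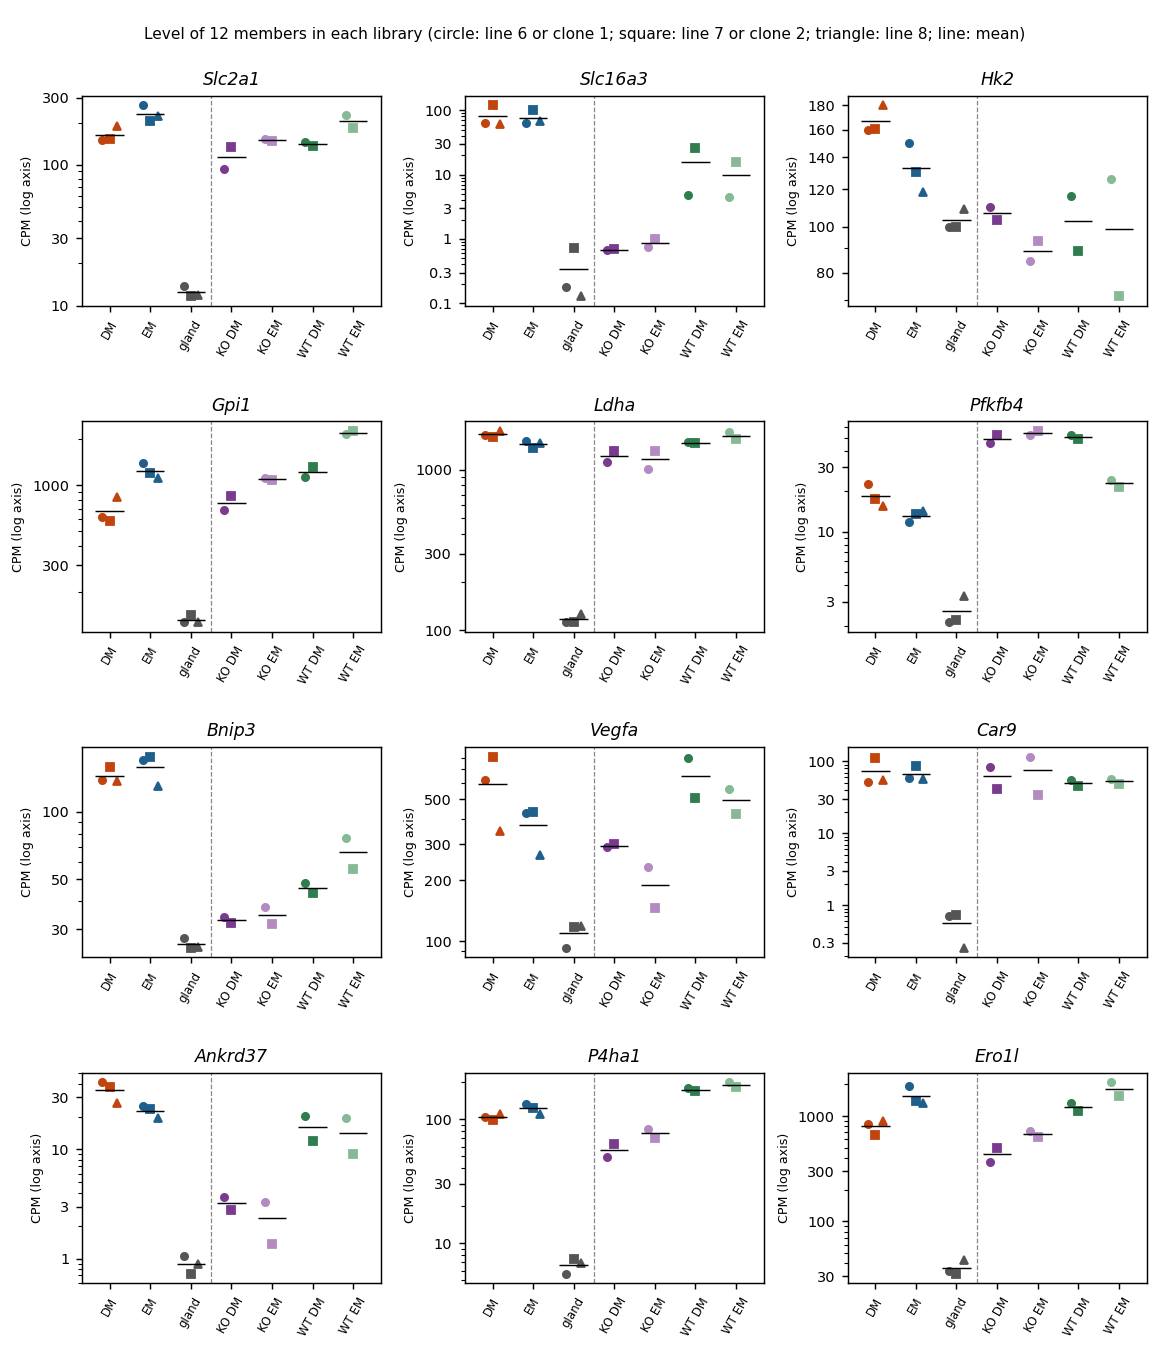
Level of 12 members in each library, in scaled CPM on a log axis (circle: line 6 or clone 1; square: line 7 or clone 2; triangle: line 8; black line: mean). The dashed line parts the tables, which were scaled apart; Slc2a1 sits at 149 to 189 CPM in DM, 204 to 266 in EM and 11.7 to 13.8 in gland.

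Organoids expressed nearly the whole set above gland. Slc2a1 (ENSMUSG00000028645, chromosome 4, 119108711 to 119137983), the glucose transporter GLUT1, had 149, 152 and 189 CPM in DM organoids of lines 6, 7 and 8, 266, 204 and 223 CPM in EM organoids, beside 13.8, 11.7 and 12 CPM in gland. Ldha (ENSMUSG00000063229, chromosome 7, 46841475 to 46855627) had 1644, 1588 and 1743 CPM in DM, 1510, 1356 and 1456 in EM and 113, 113 and 127 in gland. Organoid and gland libraries did not overlap for either gene. The log2 fold change over gland was 3.71 ± 0.15 (SE) for Slc2a1 in DM (edgeR quasi-likelihood test with Benjamini-Hochberg adjustment, adjusted p = 1.77e-09) and 4.21 ± 0.15 in EM (adjusted p = 8.16e-10), and that of Ldha was 3.82 ± 0.11 in DM (adjusted p = 1.58e-10) and 3.61 ± 0.11 in EM (adjusted p = 2.23e-10). In DM 34 of 35 tested members were higher than gland and 1 was lower (background over all 13713 genes 38.1% higher and 37.4% lower). In EM 34 of 35 were higher and 0 lower (background 37.4% and 37.4%), and the member that missed the threshold was Pfkm. The median log2 fold change of members was 3.81 in DM and 3.90 in EM, against 0.02 and 0.01 over all genes. Scaling by total counts shifted the median of all genes to 1.98 in DM and 2.06 in EM, moved the background to 84% higher and 9.27% lower in DM and to 83.8% and 9.49% in EM, and left the other 34 tested members higher; Pfkm then changed sign, to 1.24 in DM and 1.91 in EM. In bulk samples, fewer cells of a type and less RNA per cell cannot be told apart.

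The size of the difference over gland varied widely within the glycolytic group. Slc16a3 (MCT4, the lactate exporter; chromosome 11, 120948480 to 120960868) had 64.1, 120 and 61.0 CPM in DM, 63.8, 99.3 and 67.3 CPM in EM, beside 0.178, 0.729 and 0.129 CPM in gland, where the 3 libraries held 1, 4 and 1 counts. Aldoc, the aldolase best known from brain, had 91.9, 98.4 and 111 CPM in DM, 150, 169 and 185 CPM in EM, beside 1.07, 1.46 and 2.06 CPM in gland. Both stood above gland in every organoid library, with log2 fold changes for Slc16a3 of 7.98 ± 0.54 in DM and 7.88 ± 0.54 in EM, and for Aldoc of 5.98 ± 0.18 in DM and 6.73 ± 0.18 in EM. The platelet-type phosphofructokinase Pfkp (log2 4.78 ± 0.16 in DM, 5.52 ± 0.16 in EM) and Pfkfb3 (4.35 ± 0.31 in DM, 5.27 ± 0.30 in EM), which makes the fructose bisphosphate that activates phosphofructokinase, came next. The main enzymes of the lower pathway rose by similar amounts: in DM Gapdh by 4.14, Pgk1 (phosphoglycerate kinase) by 3.69, Pgam1 (phosphoglycerate mutase) by 3.18, Eno1 (enolase 1) by 4.27 and Pkm by 4.26 on the log2 scale. Hk1, the hexokinase found in most tissues, rose by 2.19 in DM and 2.5 in EM, Gpi1 (glucose phosphate isomerase) by 2.36 and 3.23, Pfkl (liver-type phosphofructokinase) by 4.10 and 4.30, Aldoa by 2.66 and 2.89, and Tpi1 by 2.74 and 2.6. Pdk1, the kinase that shuts pyruvate dehydrogenase, rose by 1.66 and 1.71, and Pfkfb4, a relative of Pfkfb3, by 2.81 and 2.32; every one of these has an adjusted p at most 2.57e-06 by edgeR.

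The smallest rise among the enzymes was that of Hk2, Pfkm did not rise, and Eno2 was not tested. Hk2, the hexokinase isoform most often induced by HIF, had 160, 161 and 180 CPM in DM, 150, 131 and 118 CPM in EM, beside 100, 99.9 and 109 CPM in gland. All DM and EM libraries lay above gland, but by only 0.69 ± 0.10 in DM (adjusted p = 6.45e-05) and 0.37 ± 0.10 in EM (adjusted p = 0.00599) on the log2 scale. Pfkm, the muscle-type phosphofructokinase, had 16.9, 20.3 and 22.1 CPM in DM, 30.2, 30.0 and 28.7 CPM in EM, beside 31.6, 35 and 32.4 CPM in gland. It was the sole member lower than gland, in DM (log2 -0.74 ± 0.11, adjusted p = 8.63e-05), and its EM value was -0.15 ± 0.11 (adjusted p = 0.216). Its exons share 18 bases with Senp1 on the opposite strand. Eno2, the neuronal enolase, did not pass the filter on low counts in this table: it had 0, 0.0769 and 0.158 CPM in DM, 0.291, 0.475 and 0.124 CPM in EM, beside 1.60, 1.46 and 2.06 CPM in gland, or 0 to 16 counts a library.

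**Figure D2:**
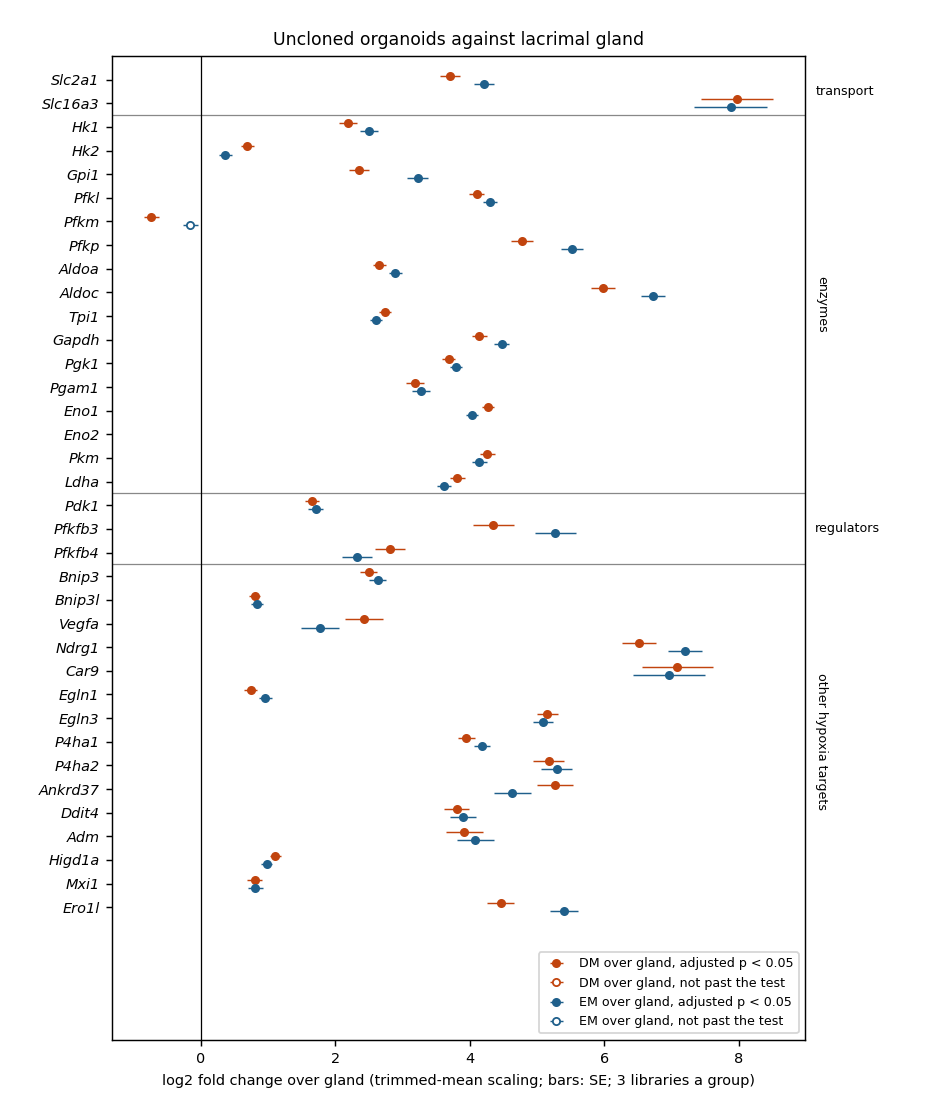
Log2 fold change over gland of 35 tested members in DM (orange) and EM (blue) uncloned organoids, with SE as bars (3 libraries a group; filled: adjusted p under 0.05). Values run from -0.74 for Pfkm to 7.98 for Slc16a3, both in DM; Eno2 was not tested.

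All 15 other hypoxia targets were higher than gland in both media. Ndrg1, a stress-response gene, had 502, 456 and 757 CPM in DM, 1039, 805 and 921 CPM in EM, beside 4.97, 6.20 and 7.33 CPM in gland. Car9, the surface carbonic anhydrase widely used to mark hypoxic tumour cells, had 51.9, 112 and 55.2 CPM in DM, 58.3, 86.6 and 56.7 CPM in EM, beside 0.710, 0.729 and 0.257 CPM in gland. Every organoid library was far above every gland library for both. The log2 fold change of Ndrg1 was 6.51 ± 0.25 in DM and 7.2 ± 0.26 in EM, and that of Car9 was 7.09 ± 0.53 in DM (adjusted p = 2.69e-07) and 6.97 ± 0.53 in EM (adjusted p = 3.51e-07). Gland libraries held few counts of Car9, as of Slc16a3, Aldoc and Ankrd37, and these genes passed the filter on low counts through the organoid libraries. All of them are counted among the members higher than gland, and the size of their fold changes is poorly fixed. Ankrd37, an ankyrin repeat gene induced by HIF, followed in DM at 5.27 ± 0.27, then P4ha2, a collagen prolyl hydroxylase, at 5.18 ± 0.23. In EM the next were Ero1l, the oxidase that forms disulfide bonds in the endoplasmic reticulum, at 5.41 ± 0.21 and P4ha2 at 5.29 ± 0.23. Vegfa, the growth factor for blood vessels, had 619, 808 and 348 CPM in DM, 429, 430 and 266 CPM in EM, beside 93, 117 and 119 CPM in gland, so the lowest organoid library, line 8 in EM, still lay above the highest gland library. Its log2 fold change was 2.43 ± 0.29 in DM (adjusted p = 1.24e-05) and 1.77 ± 0.28 in EM (adjusted p = 0.000139). Bnip3, a mitophagy receptor, had 139, 158 and 138 CPM in DM, 170, 176 and 130 in EM and 27.3, 24.8 and 24.9 in gland, a log2 fold change of 2.5 ± 0.13 in DM (adjusted p = 1.34e-08) and 2.63 ± 0.13 in EM (adjusted p = 9.7e-09). Egln3, a prolyl hydroxylase that is itself a HIF target, rose by 5.16 in DM and 5.09 in EM on the log2 scale, P4ha1 by 3.95 and 4.18, Ddit4 (REDD1, an inhibitor of mTORC1) by 3.81 and 3.90, and Adm (adrenomedullin) by 3.92 and 4.08. The smallest rises were those of Egln1, the main oxygen-sensing prolyl hydroxylase (0.74 in DM, 0.96 in EM), Bnip3l, the mitophagy receptor NIX (0.80 and 0.84), Mxi1, a MYC antagonist (0.80 and 0.81), and Higd1a, a mitochondrial protein (1.11 and 0.98).

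The cell makeup differed between organoids and gland as well. Summed over 6 genes a list, epithelial markers held 6400 to 7990 CPM in DM, 4160 to 4700 in EM and 1150 to 1180 in gland, and all 6 were higher in both media. Myoepithelial markers held 137 to 230 CPM in DM, 6.13 to 7.22 in EM and 296 to 312 in gland, with 3 of 6 lower in DM and 6 of 6 in EM. Acinar markers held 21.8 to 26.4 CPM in DM, 3.29 to 4.26 in EM and 14000 to 15100 in gland, fibroblast markers 0.154 to 0.538 in DM, 0 to 0.29 in EM and 656 to 788 in gland, endothelial markers 0.513 to 0.692, 0.877 to 1.62 and 56.5 to 70.1, and leukocyte markers 3.92 to 7.17, 0.621 to 1.49 and 181 to 211. All tested genes of those 4 lists were lower in both media (5 acinar, 6 fibroblast, 6 endothelial and 4 leukocyte genes), and the fibroblast genes Col1a2, Col3a1 and Lum were at 0 in every uncloned organoid library, as were the endothelial genes Kdr and Emcn and the leukocyte genes Ptprc, Cd3e and Adgre1. Of 10 cell division genes, 7 were higher in DM and 9 in EM. Their part in the differences over gland was not tested.

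Within families of related enzymes the balance of forms differed between organoids and gland, taken as the share of CPM per kilobase. Pfkm made up 10.6 ± 0.517% of phosphofructokinase transcript in DM and 12.6 ± 0.433% in EM, against 78.4 ± 2.37% in gland (SD, n = 3 each). Pfkp made up 14.1 ± 1.03% in DM, 18.8 ± 1.35% in EM and 2.26 ± 0.224% in gland, so most of the organoid transcript was Pfkl. Hk2 made up 57.0 ± 2.23% of Hk1 plus Hk2 in DM, 45.6 ± 3.47% in EM and 78.7 ± 2.64% in gland. Egln3 made up 90.3% of Egln1 plus Egln3 in DM and 88.5% in EM, against 30.5% in gland, and Bnip3 made up 66.8% of Bnip3 plus Bnip3l in DM and 68.1% in EM, against 38.4% in gland. Aldoc made up 6.39% of Aldoa plus Aldoc in DM, 8.87% in EM and 0.651% in gland, Eno2 made up 0.00718%, 0.0325% and 2.95% of Eno1 plus Eno2, and Ldha made up 96.7%, 92.5% and 91.7% of Ldha plus Ldhb. For 20 of the 24 comparisons of shares the groups did not overlap, and the two-sided exact permutation p was then 0.1, the smallest that 3 against 3 allows (0.12 adjusted over the 24). Groups overlapped for Ldha in EM against gland (exact permutation p = 0.6) and, in DM against EM, for Bnip3 (exact p = 0.5), Egln3 (exact p = 0.3) and Eno2 (exact p = 0.2). In the clones, with both media pooled, Egln3 made up 82.4 to 85.4% in labelled KO libraries and 87.9 to 90.8% in WT libraries. Bnip3 made up 33.7 to 37.45% and 37.51 to 48.0%, so those libraries were barely apart. The shares of Hk2, Pfkp, Pfkm, Aldoc, Eno2 and Ldha overlapped between labelled KO and WT libraries. These clone shares were not tested.

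**Figure D3:**
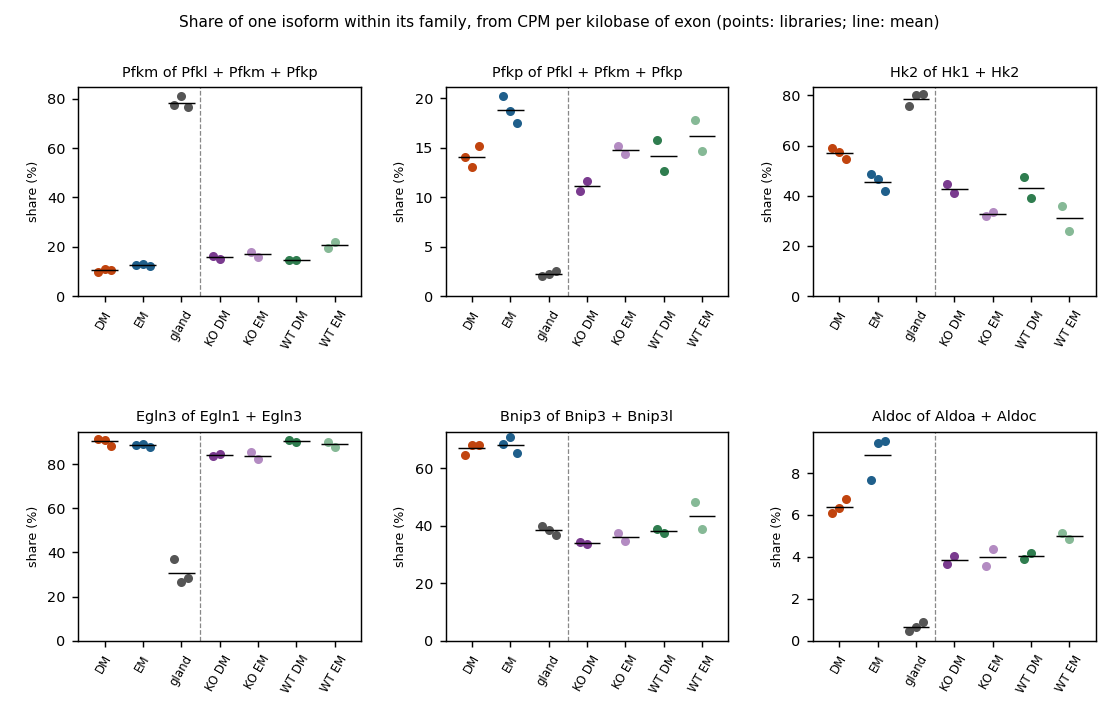
Share of 1 form within its family in each library, in percent of CPM per kilobase of exon (points: libraries; line: mean; the dashed line parts both tables). The Pfkm share lies at 76.6 to 81.1% in gland and at 21.8% or less in every organoid library, and the Egln3 share at 26.5 to 36.8% in gland and at 82.4% or more in organoids.

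Around the set, the shares of each list called can be read against the 38.1% of all genes higher and 37.4% lower in DM, and 37.4% and 37.4% in EM. In the HIF machinery 3 of 7 tested genes were higher and 2 lower than gland in DM, and 5 were higher and 1 lower in EM. Hif1a, the oxygen-regulated alpha subunit, had 135, 142 and 164 CPM in DM, 137, 142 and 136 CPM in EM, beside 42.1, 48.5 and 37.4 CPM in gland. Its log2 fold change was 1.79 ± 0.11 in DM and 1.70 ± 0.11 in EM (adjusted p = 8.65e-08), that of Epas1 (HIF-2 alpha) was 1.89 in DM and 2.10 ± 0.16 in EM, and that of the hydroxylase Egln2 was -1.19 in DM and -1.02 in EM. HIF activity is set mostly by protein stability, which RNA levels do not measure. Among other glycolytic isoforms and gluconeogenic genes, 17 tested, 6 were higher and 8 lower in DM and 7 higher and 6 lower in EM. Fbp2, the muscle fructose bisphosphatase of gluconeogenesis, was at 0 in all DM libraries and at 0.083, 0 and 0 CPM in EM, against 54.2, 64.2 and 54.8 CPM in gland. Pdk2 was lower in both media (log2 -2.98 in DM, -3.04 in EM) and Ldhb, the heart-type lactate dehydrogenase subunit, was higher (2.38 and 3.43). Of 23 genes of pyruvate entry and the citrate cycle, 5 were higher and 14 lower in DM and 10 higher and 12 lower in EM, with the mitochondrial pyruvate carrier Mpc2 at -2.29 in DM and -2.28 in EM, the pyruvate dehydrogenase subunits Pdha1 (-1.47 and -1.35) and Pdhb (-1.19 and -1.18) also lower, and citrate synthase, Cs, at 1.10 and 1.52. In the pentose phosphate pathway 4 of 7 genes were higher and 2 lower in each medium, and among 8 targets of ATF4 or p53, which also drive Ddit4, 4 were higher and 4 lower in DM and 4 higher and 2 lower in EM.

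Differentiation moved a minority of the set, and in both directions. Of 35 tested members in uncloned organoids, 4 rose and 9 fell in DM against EM (background 17.2% higher and 13.2% lower); 19 reached an unadjusted p under 0.05. The median member changed by -0.11 on the log2 scale, against 0 for all genes. In the glycolytic group 3 of 20 rose and 7 fell. Gpi1 (ENSMUSG00000036427, chromosome 7, 34201330 to 34230336) had 621, 588 and 834 CPM in DM and 1405, 1206 and 1114 CPM in EM. Pfkfb3 (ENSMUSG00000026773, chromosome 2, 11471433 to 11554077) had 61.1, 59.0 and 105 CPM in DM and 167, 141 and 120 CPM in EM. Neither pair of groups overlapped, and line 8 was the DM library closest to EM for both. The log2 fold change was -0.87 ± 0.14 for Gpi1 (adjusted p = 0.000974) and -0.92 ± 0.21 for Pfkfb3 (adjusted p = 0.00689). Pfkp had 95.7, 97.2 and 125 CPM in DM and 192, 173 and 166 in EM (log2 -0.74 ± 0.11, adjusted p = 0.000545), and Aldoc fell by as much (-0.74 ± 0.11, adjusted p = 0.000534). Pfkm (-0.58 ± 0.10, adjusted p = 0.00181), Slc2a1 (-0.50 ± 0.12, adjusted p = 0.00921) and Gapdh (-0.33 ± 0.09, adjusted p = 0.0215) fell by less, so the glucose transporter and 6 enzymes or regulators from Gpi1 to Gapdh were lower in DM.

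The rises were small. Pfkfb4 (ENSMUSG00000025648, chromosome 9, 108991778 to 109032228) had 22.6, 17.3 and 15.6 CPM in DM and 11.8, 13.5 and 14.1 CPM in EM (log2 0.49 ± 0.16, adjusted p = 0.0434). Hk2 rose by 0.33 ± 0.10 (adjusted p = 0.0266) and Eno1 by 0.23 ± 0.08 (adjusted p = 0.0477), and the groups did not overlap for any of the 3. With lines fitted as blocks Pfkfb4 (0.48, adjusted p = 0.0633) and Eno1 (0.23, adjusted p = 0.0708) did not pass. Ldha was 0.20 ± 0.10 higher (adjusted p = 0.133) and Pkm 0.12 ± 0.10 higher (adjusted p = 0.4), and neither passed the test. Glycolytic members that did not pass and were lower included Hk1 (-0.32), Aldoa (-0.24), Pfkl (-0.20), Pgk1 (-0.11), Pgam1 (-0.10) and Pdk1 (-0.05), while Tpi1 was at 0.14 and Slc16a3 at 0.09. The count of rises rested on single libraries: 0 members rose without line 8 in EM, 1 without line 7 in EM, and 2 without line 6 in EM, line 6 in DM or line 7 in DM, whereas the falls numbered 16 without line 8 in DM. Over all genes 12.6 to 13.2% were higher in those 5 fits, and 18.4% were lower without line 8 in DM. Across the leave-one-out fits 7 of the 13 calls stood every time, namely Slc2a1, Gpi1, Pfkm, Pfkp, Aldoc, Pfkfb3 and Ero1l. With total-count scaling 1 member rose and 14 fell (background 14.2% higher and 19% lower).

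Among the other hypoxia targets 1 of 15 rose and 2 fell. Ero1l (ENSMUSG00000021831, chromosome 14, 45283087 to 45318771) had 846, 661 and 901 CPM in DM and 1914, 1379 and 1340 CPM in EM, and Ndrg1 (ENSMUSG00000005125, chromosome 15, 66929318 to 66969640) had 502, 456 and 757 CPM in DM and 1039, 805 and 921 CPM in EM. The groups were apart for both genes, and line 8 in DM was again the highest DM library. The log2 fold change was -0.94 ± 0.17 for Ero1l (adjusted p = 0.00185) and -0.69 ± 0.18 for Ndrg1 (adjusted p = 0.0141). Ankrd37 (ENSMUSG00000050914, chromosome 8, 45996902 to 46005707) had 41.1, 37.3 and 26.7 CPM in DM and 25.0, 23.3 and 19.2 CPM in EM, a rise of 0.63 ± 0.16 (adjusted p = 0.0111) in which each line was higher in DM than its own EM library. Its exons share 57 bases with Ufsp2 and 349 with Lrp2bp on the opposite strand, and whether strand was used in counting is not given in the sources used here. Vegfa was higher in DM in every line, by 0.53, 0.91 and 0.39 in lines 6, 7 and 8 on the log2 scale, but line 8 was low in both media and the groups overlapped (0.66 ± 0.27, adjusted p = 0.0877); it passed once lines were fitted as blocks, at 0.63 (adjusted p = 0.0497). Car9 (0.12, adjusted p = 0.777) and Bnip3 (-0.13, adjusted p = 0.408) did not pass the test. The rest lay between -0.24 and 0.13 and did not pass it: P4ha1, Egln1, Adm, P4ha2, Ddit4, Bnip3l, Mxi1, Egln3 and Higd1a. P4ha2 and Adm each went down in lines 6 and 7 and up in line 8, by -0.42, -0.46 and 0.51 for P4ha2 and by -0.52, -0.35 and 0.26 for Adm.

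**Figure D4:**
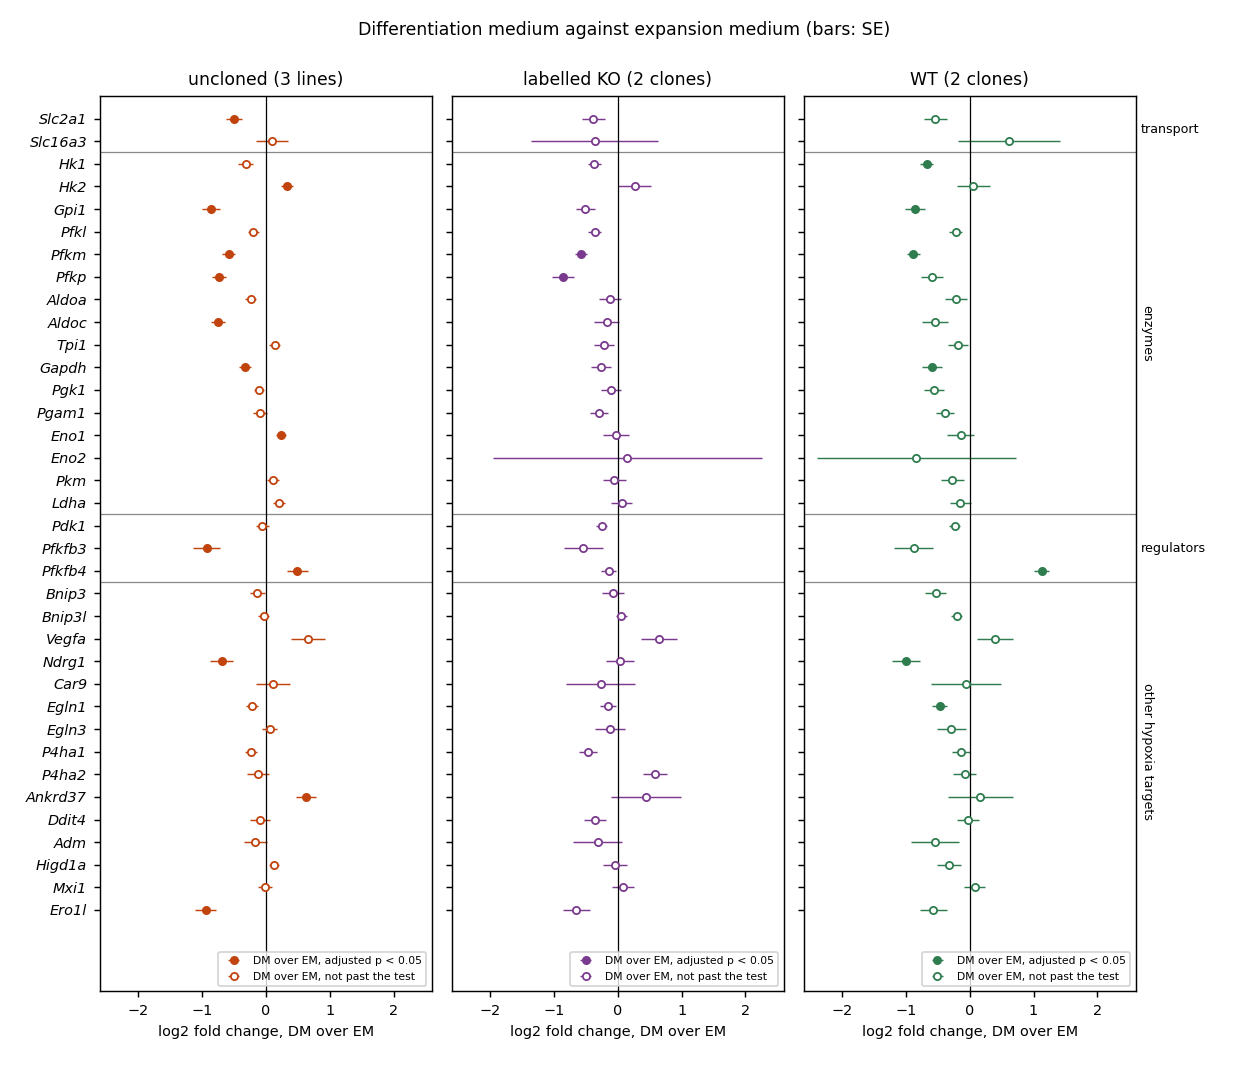
Log2 fold change in DM over EM of every tested member, with SE as bars, in uncloned organoids (3 lines), clones labelled KO (2 clones) and WT clones (2 clones); filled points have an adjusted p under 0.05. In uncloned organoids values run from -0.94 (Ero1l) to 0.66 (Vegfa), and in WT clones Pfkfb4 stands at 1.13.

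The neighbouring pathways can be read against the 17.2% of all genes higher and 13.2% lower in DM. In the HIF machinery 0 of 7 genes rose and 3 fell: Hif1an, the asparagine hydroxylase that inhibits HIF (log2 -0.46 ± 0.07, adjusted p = 0.000805), Arnt (-0.39 ± 0.08, adjusted p = 0.00383) and Vhl (-0.54 ± 0.15, adjusted p = 0.0213). Among 17 other glycolytic and gluconeogenic genes 3 rose and 6 fell, led by Bpgm, which makes 2,3-bisphosphoglycerate (1.63 ± 0.19, adjusted p = 0.00011), Ldhb (-1.05 ± 0.13, adjusted p = 0.000197) and Pfkfb2 (-0.49 ± 0.08, adjusted p = 0.00124). In pyruvate entry and the citrate cycle 0 of 23 rose and 9 fell, among them Ogdh (-0.55 ± 0.09, adjusted p = 0.00122) and Sdha (-0.47 ± 0.08, adjusted p = 0.00149), subunits of oxoglutarate dehydrogenase and succinate dehydrogenase. In the pentose phosphate pathway 2 of 7 rose, G6pdx (0.43) and Rpia (0.53), and Tkt fell (-0.52). Of 8 ATF4 or p53 targets 1 rose and 4 fell, and none of 10 cell division genes passed the test. Myoepithelial markers held 137 to 230 CPM in DM and 6.13 to 7.22 in EM, with 5 of 6 higher, and 5 of 6 epithelial markers were higher; their part in the member values was not tested.

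In the WT clones 1 of 36 members rose and 6 fell in DM against EM (background 9.61% higher and 6.13% lower). The median member changed by -0.28, against 0 for all genes, and in 23 of 36 members both DM libraries lay below both EM libraries, as they did for 29.3% of all genes. Pfkfb4 had 51.8 and 48.4 CPM in DM and 24.4 and 21.6 CPM in EM, and Pfkm had 31.9 and 31.2 CPM in DM and 57.3 and 59.1 CPM in EM. The groups were far apart for both, with a log2 fold change of 1.13 ± 0.12 for Pfkfb4 (adjusted p = 0.00269) and -0.88 ± 0.10 for Pfkm (adjusted p = 0.00338). Gpi1 fell to 1126 and 1324 CPM in DM, against 2151 and 2264 CPM in EM (-0.85 ± 0.16, adjusted p = 0.0144). Hk1 (-0.67 ± 0.10, adjusted p = 0.00816), Gapdh (-0.59 ± 0.16, adjusted p = 0.0464), Ndrg1 (-1.0 ± 0.22, adjusted p = 0.0265) and Egln1 (-0.47 ± 0.12, adjusted p = 0.0441) fell too. Slc2a1 (-0.54, adjusted p = 0.0901), Bnip3 (-0.54, adjusted p = 0.0775), Vegfa (0.39, adjusted p = 0.402), Hk2 (0.06, adjusted p = 0.913), Ldha (-0.15, adjusted p = 0.611) and Car9 (-0.06, adjusted p = 0.963) did not pass. Taking the clone as a block, 12 members fell (background 10.7%) and 1 rose (14.9%), adding Slc2a1, Pfkp, Aldoc, Pgk1, Pgam1 and Bnip3. DESeq2 called 11 lower (background 8.19%). Without WT clone 1 in EM 1 member fell, without WT clone 1 in DM 2 fell, and without either labelled KO library in EM, which share the estimate of spread, 3 fell; over all genes 1.38%, 3.39% and 3.66 to 3.76% were lower in those fits. Pfkm and Pfkfb4 kept their calls in every leave-one-out fit.

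In the clones labelled Pax6-KO 0 of 36 members rose and 2 fell in DM against EM (background 4.94% higher and 3.41% lower), with a median of -0.16 against 0 for all genes. Both DM libraries lay below both EM libraries in 15 of 36 members, as they did for 29.5% of all genes. Pfkp had 54.6 and 64.1 CPM in DM and 109 and 107 CPM in EM, and Pfkm had 21.0 and 20.6 CPM in DM and 32.1 and 29.8 CPM in EM. Neither overlapped, and the log2 fold change was -0.86 ± 0.17 for Pfkp (adjusted p = 0.0294) and -0.57 ± 0.10 for Pfkm (adjusted p = 0.0213). Neither call stood when any 1 of the 4 labelled KO libraries was left out, which leaves 1 library in an arm that is then assumed to vary like the other groups. The fold changes there were -0.985 to -0.753 for Pfkp and -0.632 to -0.523 for Pfkm, and over all genes 0.133 to 0.506% were lower. With the clone as a block 3 fell, Ero1l (-0.66, adjusted p = 0.0443) being added, and Vegfa rose (0.68, adjusted p = 0.0446), against a background of 9.25% higher and 7.12% lower; DESeq2 called 6 lower and 1 higher (5.87% and 7.94%). Without the block Vegfa had 290 and 301 CPM in DM and 231 and 146 CPM in EM (0.65, adjusted p = 0.223). Slc2a1 (-0.39, adjusted p = 0.249), Hk2 (0.26, adjusted p = 0.6), Ldha (0.06, adjusted p = 0.875), Bnip3 (-0.07, adjusted p = 0.857) and Car9 (-0.27, adjusted p = 0.821) did not pass. In both kinds of clone Vhl fell in DM (-0.57 ± 0.12 labelled KO, adjusted p = 0.0374; -0.72 ± 0.12 WT, adjusted p = 0.0111) and Bpgm rose (1.03 ± 0.17 labelled KO, adjusted p = 0.02; 1.51 ± 0.18 WT, adjusted p = 0.0038). Of the 23 genes of pyruvate entry and the citrate cycle 0 rose and 2 fell in labelled KO clones, and 0 rose and 10 fell in WT clones. Among 10 cell division genes 5 fell in labelled KO clones (Mki67 by 2.56 on the log2 scale) and 2 in WT clones (Mki67 by 1.84); myoepithelial markers held 32.1 to 36.8 CPM in DM and 1.26 to 1.67 in EM in labelled KO clones, and 11.7 to 30.1 in DM and 1.43 to 3.7 in EM in WT clones. Their part in the member values was not tested.

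Whether the DM effect differed between labelled KO and WT clones was tested as an interaction. By edgeR 0 of 36 members and 0% of all 14282 genes passed in either direction, 3 members and 7.88% of all genes reached an unadjusted p under 0.05, and DESeq2 called 0.273% of genes higher and 1.09% lower, with 1 member, Pfkfb4, among the lower ones. Pfkfb4 had the smallest p of the members: its DM effect was -0.14 ± 0.12 in labelled KO clones and 1.13 ± 0.12 in WT clones, a difference of -1.27 ± 0.17 (edgeR, adjusted p = 0.227). That difference passed with the clone as a block, at -1.27 (adjusted p = 0.0255), where it was the sole member called (background 0.042% higher and 0.448% lower). It also passed in DESeq2 (-1.26, adjusted p = 1.82e-05) and in edgeR without the filter on low counts (-1.26, adjusted p = 1.07e-05). The other members under 0.05 unadjusted were Ndrg1 (1.04 ± 0.31, adjusted p = 0.469) and P4ha2 (0.66 ± 0.26, adjusted p = 0.592).

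The clones labelled Pax6-KO stood below the WT clones across much of the set, in glycolytic genes and in other hypoxia targets. In EM 16 of 36 members were lower and 1 higher (background 4.41% lower and 5.38% higher): 6 of 21 glycolytic genes and 10 of 15 other targets were lower. In DM 8 of 36 were lower and 0 higher (background 3.08% and 2.39%), 4 of each group. Fits of only the groups compared, where each clone enters once, gave 16 members lower in EM and 2 in DM (background 5.17% and 0.474%). Whether the 2 groups of genes differed from each other was not tested. The median log2 fold change of labelled KO over WT in EM was -0.49 for glycolytic genes and -1.05 for other targets, against 0.01 for all genes, and in DM it was -0.30 and -0.88, against -0.01. In 29 of 36 members both labelled KO libraries lay below both WT libraries in EM, as did 30.4% of all genes, and in DM this held for 22 of 36, against 26.3%. Summed, the glycolytic genes took 0.801 and 0.919% of counts in labelled KO clones in DM and 0.927 and 1.05% in EM, against 1.09 and 1.06% in WT clones in DM and 1.49 and 1.41% in EM. The other targets took 0.222 and 0.242% in labelled KO clones in DM and 0.286 and 0.241% in EM, against 0.454 and 0.411% in WT clones in DM and 0.633 and 0.482% in EM.

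Among the hypoxia targets, both collagen prolyl hydroxylases were lower. P4ha1 (ENSMUSG00000019916, chromosome 10, 59323296 to 59373304) had 49.6 and 62.4 CPM in labelled KO clones in DM, against 177 and 169 CPM in WT clones, and 83.7 and 70.6 CPM in EM, against 197 and 182 CPM. P4ha2 (ENSMUSG00000018906, chromosome 11, 54100095 to 54131665) had 112 and 145 CPM in labelled KO clones in DM, against 258 and 297 CPM in WT clones, and 99.4 and 72.5 CPM in EM, against 298 and 289 CPM. The clones were well apart for both genes in both media. P4ha1 stood at -1.63 ± 0.14 in DM (adjusted p = 0.00872) and -1.30 ± 0.14 in EM (adjusted p = 0.00615), and P4ha2 at -1.11 ± 0.19 in DM (adjusted p = 0.0276) and -1.77 ± 0.19 in EM (adjusted p = 0.0061). Ero1l had 369 and 498 CPM in labelled KO clones in DM, against 1326 and 1126 CPM in WT clones, and 722 and 639 CPM in EM, against 2090 and 1549 CPM (-1.50 ± 0.22 in DM, adjusted p = 0.0223; -1.42 ± 0.22 in EM, adjusted p = 0.0125). Ddit4 had 342 and 318 CPM in labelled KO clones in DM, against 753 and 745 CPM in WT clones (-1.18 ± 0.17, adjusted p = 0.0223), and was lower in EM (-0.85 ± 0.17, adjusted p = 0.0289). No labelled KO library reached the lowest WT library for either.

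Vegfa (ENSMUSG00000023951, chromosome 17, 46016993 to 46032369) had 290 and 301 CPM in labelled KO clones in DM, against 792 and 503 CPM in WT clones, and 231 and 146 CPM in EM, against 562 and 424 CPM. The groups were apart in both media, and the fold change passed the test in EM (-1.39 ± 0.29, adjusted p = 0.0311) and not in DM (-1.13 ± 0.29, adjusted p = 0.071). Ankrd37 had 3.64 and 2.76 CPM in labelled KO clones in DM, against 20.1 and 11.8 CPM in WT clones, and 3.33 and 1.36 CPM in EM, against 19.4 and 9.0 CPM. Its log2 fold change passed the test in EM (-2.59 ± 0.55, adjusted p = 0.0326), the largest fall of a hypoxia target there, and not in DM (-2.32 ± 0.54, adjusted p = 0.0568). Bnip3 (-0.94 ± 0.17, adjusted p = 0.0214), Bnip3l (-0.48 ± 0.09, adjusted p = 0.02), Ndrg1 (-1.05 ± 0.22, adjusted p = 0.0315) and Egln3 (-1.05 ± 0.23, adjusted p = 0.0346) were lower in EM and did not pass in DM, where Bnip3 was at -0.47 (adjusted p = 0.152) and Ndrg1 at -0.02 (adjusted p = 0.974). Of the members outside these calls, Adm was at -1.19 in EM and -0.96 in DM, Higd1a at -0.44 and -0.16, and Egln1 at -0.37 and -0.05. Car9 and Mxi1 were the hypoxia targets with higher values in labelled KO clones in both media. Car9 had 84.1 and 41.2 CPM in labelled KO clones in DM, against 55.6 and 46.3 CPM in WT clones, and 116 and 34.5 CPM in EM, against 57.7 and 48.3 CPM. Labelled KO clone 1 was the highest and clone 2 the lowest library in each medium, and the test did not pass (0.30 in DM, adjusted p = 0.787; 0.51 in EM, adjusted p = 0.597). Mxi1 was at 0.33 in DM (adjusted p = 0.282) and 0.32 in EM (adjusted p = 0.264).

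In the glycolytic group all 3 phosphofructokinases were lower in labelled KO clones in both media. Pfkp had 54.6 and 64.1 CPM in labelled KO clones in DM, against 136 and 108 CPM in WT clones (-1.04 ± 0.17, adjusted p = 0.026), and was lower in EM too (-0.77 ± 0.17, adjusted p = 0.0346). Its exons share 748 bases with Pitrm1 on the opposite strand, whose counts came to 39.2% of those of Pfkp in this table. Pfkm stood at -0.60 ± 0.10 in DM (adjusted p = 0.0269) and at -0.91 ± 0.10 in EM (adjusted p = 0.00615), and Pfkl had 187 and 202 CPM in labelled KO clones in DM, against 299 and 311 CPM in WT clones (-0.65 ± 0.10, adjusted p = 0.0244; -0.51 ± 0.10 in EM, adjusted p = 0.0262). Gpi1 had 1113 and 1076 CPM in labelled KO clones in EM, against 2151 and 2264 CPM in WT clones (-1.01 ± 0.16, adjusted p = 0.013; -0.67 in DM, adjusted p = 0.0553). Aldoc was lower in EM (-1.03 ± 0.20, adjusted p = 0.0248), as was Pgk1 (-0.73 ± 0.15, adjusted p = 0.0311). Neither passed in DM, at -0.66 for Aldoc and -0.28 for Pgk1.

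Slc16a3 had the largest called difference in DM. Labelled KO clones had 0.667 and 0.691 CPM in DM and 0.758 and 0.991 CPM in EM, or 13 to 19 counts a library, against 4.76 and 26.1 CPM in WT clones in DM and 4.51 and 15.5 CPM in EM. WT clone 2 was the highest library in each medium, and no labelled KO library reached WT clone 1. The log2 fold change was -4.49 ± 0.97 in DM (adjusted p = 0.0477) and -3.51 ± 0.93 in EM (adjusted p = 0.0604). The DM value was -2.80 without WT clone 2 in DM, and -4.465 or -4.514 without labelled KO clone 1 or 2 in DM. It passed in none of these fits. In the edgeR fit of only the groups compared it was -4.482 and did not pass either (adjusted p = 0.0903). Eno2 was likewise high in WT clone 2 alone, at 5.98 CPM in DM and 11 CPM in EM, against 0.366 and 0.223 CPM in WT clone 1 and 0.106 to 0.462 CPM in the labelled KO libraries, and did not pass (-3.43 in DM, -4.42 in EM). Pfkfb4 went the other way: it had 45.7 and 52.3 CPM in labelled KO clones in DM, against 51.8 and 48.4 CPM in WT clones, and 52.3 and 56.0 CPM in EM, against 24.4 and 21.6 CPM. The low libraries were the WT clones in EM. The log2 fold change was -0.03 ± 0.12 in DM (adjusted p = 0.896) and 1.24 ± 0.12 in EM (adjusted p = 0.00498), the sole rise in the set.

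Ldha and the glucose transporter did not pass the test. Ldha had 1114 and 1313 CPM in labelled KO clones in DM, against 1482 and 1465 CPM in WT clones, and 1016 and 1310 CPM in EM, against 1718 and 1545 CPM. Slc2a1 had 94.0 and 135 CPM in labelled KO clones in DM, against 146 and 136 CPM in WT clones, and 152 and 147 CPM in EM, against 225 and 184 CPM. Both labelled KO clones were below both WT clones each time. Ldha was at -0.28 in DM (adjusted p = 0.359) and -0.49 in EM (adjusted p = 0.119), and Slc2a1 at -0.30 (adjusted p = 0.359) and -0.45 (adjusted p = 0.162). Hk2 was at 0.06 in DM (adjusted p = 0.918) and -0.15 in EM (adjusted p = 0.756), with overlapping groups. Aldoa was at -0.60 in DM (adjusted p = 0.0919) and -0.69 in EM (adjusted p = 0.0513), and it passed under 5 of the alternatives in EM, with adjusted p = 0.000266 in DESeq2 and 0.0367 with total-count scaling. Of the rest, Tpi1 (-0.41 and -0.37), Pdk1 (-0.35 and -0.33), Gapdh (-0.17 and -0.51), Pgam1 (-0.25 and -0.35), Pkm (-0.14 and -0.36) and Pfkfb3 (-0.12 and -0.46) were lower without passing, and Eno1 (0.06 and -0.05) and Hk1 (0.08 and -0.22) had opposite signs in the media.

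**Figure D5:**
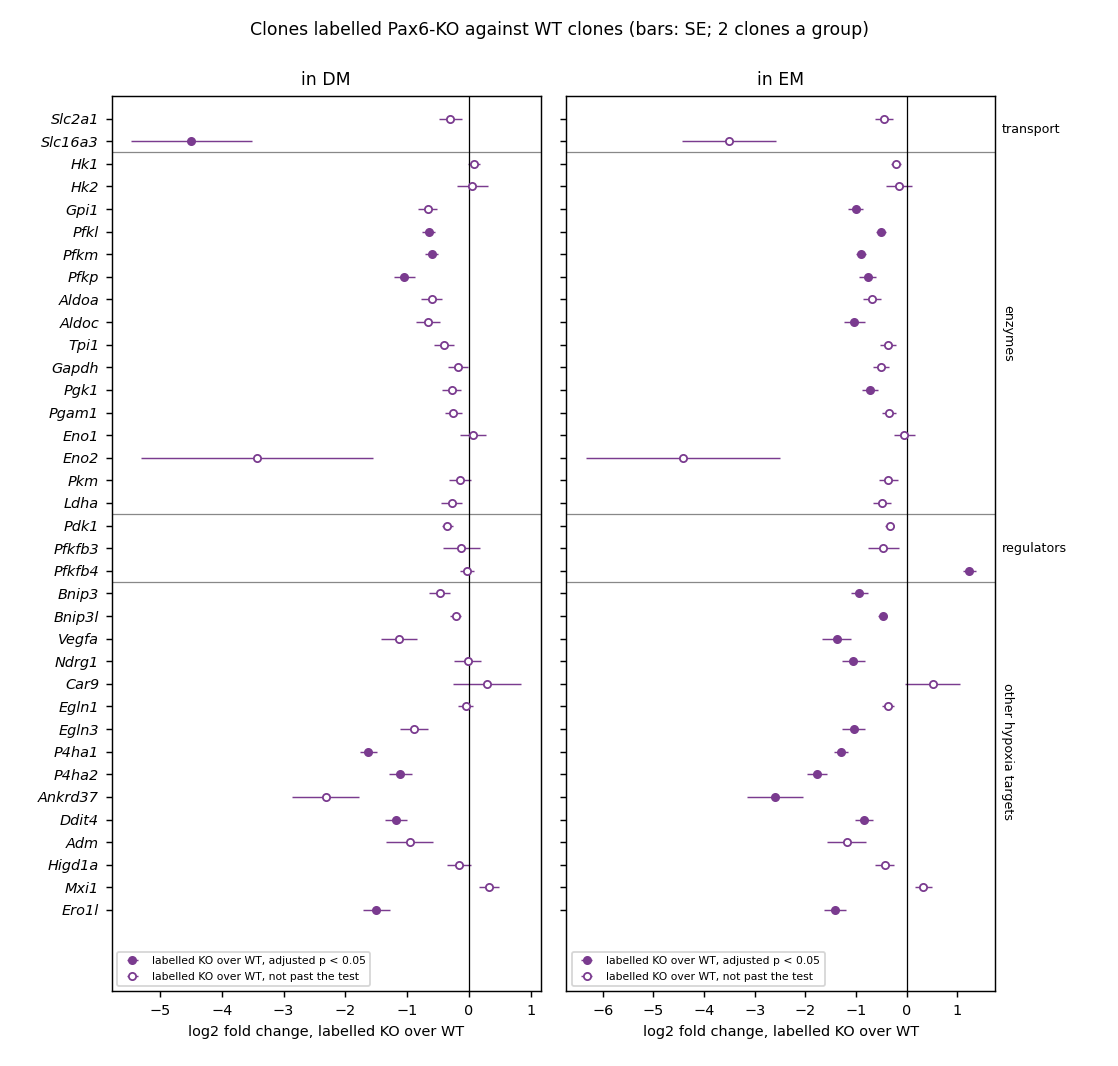
Log2 fold change of clones labelled Pax6-KO over WT clones for all 36 members in DM (left) and EM (right), with SE as bars (2 clones a group; filled: adjusted p under 0.05). In EM 16 filled points lie below 0 and Pfkfb4 lies above it at 1.24; in DM 8 filled points lie below 0.

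With 2 clones a group, leaving out a library of the groups compared leaves 1 in an arm, and fewer of all genes passed in each fit given here. In DM, 0 members were lower without labelled KO clone 1, 1 without labelled KO clone 2, 2 without WT clone 1 and 4 without WT clone 2, all in DM, and 5 or 4 without labelled KO clone 1 or 2 in EM; over all genes 0%, 0.612%, 1.08%, 1.83%, 1.3% and 1.23% were lower in those fits. Without labelled KO clone 1 in DM the fold change of P4ha1 was -1.469 and that of Ddit4 -1.235. In EM, 3 were lower without labelled KO clone 1, 2 without labelled KO clone 2, 3 without WT clone 1 and 9 without WT clone 2, beside 0.498%, 0.373%, 1.22% and 1.07% of all genes. In EM 3 of the 17 calls stood in every leave-one-out fit (Pfkfb4, P4ha1 and P4ha2), and in DM 0 of 8 did. DESeq2 called 15 members lower in DM (background 6.63%).

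The lists around the set can be read against the 2.39% of all genes higher and 3.08% lower in DM, and 5.38% and 4.41% in EM. Of 6 tested genes of the HIF machinery 1 was higher in labelled KO clones in each medium, Hif1a, with 294 and 308 CPM in DM, against 144 and 165 CPM in WT clones, and 332 and 411 CPM in EM, against 212 and 162 CPM. Its log2 fold change was 0.96 ± 0.17 in DM (adjusted p = 0.0295) and 0.99 ± 0.17 in EM (adjusted p = 0.0173), opposite in sign to most of the targets above. In pyruvate entry and the citrate cycle 0 of 23 genes were called in DM, and 5 were lower and 0 higher in EM, led by Sdhc (-0.42), Pdha1 (-0.53) and Idh3b (-0.46). Of 18 other glycolytic and gluconeogenic genes 0 were called in DM and 1 was lower in EM, Pdk2 (-1.32 ± 0.28, adjusted p = 0.0311). Tkt (-0.68) was the sole pentose phosphate gene called, in EM. Of the ATF4 or p53 targets Trib3 (1.88) and Atf4 (0.68) were higher and Sesn1 (-0.75) lower in EM, with 0 of 8 called in DM. Cell division genes gave 0 calls of 10 in either medium. Epithelial markers held 7330 to 8370 CPM in labelled KO clones in DM and 4450 to 5630 in EM, against 8410 to 9910 in WT clones in DM and 4100 to 4410 in EM, with 1 of 6 higher in EM and 0 called in DM; their part in the member values was not tested.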

How the data were processed

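RNA was made into libraries with an Illumina TruSeq stranded kit after poly(A) selection, per the labels' protocols, and the authors deposited whole-number read counts per gene in 2 tables, 1 for gland and uncloned organoids and 1 for clones. STAR, featureCounts and build GRCm38 were used per the submitters' processing notes; for versions, settings, use of strand and annotation release, the status is: not given in the sources used here. No column of either table was left unmapped. Symbols, positions and exon-union lengths came from GENCODE M21, which matched 36429 of 38293 and 55227 of 55487 IDs; unmatched IDs held 0.313% and 0.00821% of counts.

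Each table was fitted apart in R 4.3.3 with edgeR 4.0.16 (filterByExpr, trimmed-mean scaling, quasi-likelihood F test, Benjamini-Hochberg adjustment over all genes tested, threshold 0.05). This tested 13713 genes over 9 libraries (6 residual degrees of freedom, biological coefficient of variation 0.138) and 14282 genes over 8 libraries (4 degrees of freedom, 0.234). Standard errors were taken as the absolute log2 fold change over root F. The procedure was tested on simulated data. The simulated libraries were drawn independently, without a shared line or clone and without the broad difference between gland and organoids. The simulation therefore does not cover those features of the data. The members and lists were chosen with earlier results of these data known. Every member is named; Slc2a1, Hk2, Ldha, Vegfa, Bnip3 and Car9 appear in every comparison with a call, with the 4 largest called rises and falls of each group of members and any member called against the majority, and context lists give up to 3 genes with the smallest p. Other context genes in the text were chosen after their values were seen.

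Alternatives were DESeq2 1.42.0, its size factors, total-count scaling, no filter, fits of only the groups compared, leaving out each library, and a block for line or clone. Uncloned organoids in EM and DM share a line by their labels (correlation of deviations 0.181, 0.122 and 0.093 for lines 6, 7 and 8), and clones share a clone (0.603 WT, 0.507 labelled KO).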

Additional observations from a re-analysis of the deposited data

Results flagged for a closer look

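For several members the difference between DM and EM had opposite signs in different groups of organoids, in every line or clone of each group. These members were picked for that pattern, and the share of all genes showing it was not counted. Most of these differences between DM and EM were small. Those that passed edgeR's test were the rise of Pfkfb4 in WT clones and that of Eno1 in uncloned lines. Ldha in labelled KO clone 2 differed by 0.003 and Higd1a in uncloned line 6 by 0.001, too little to give a direction. Between labelled KO and WT clones, the difference in the mean log2 change of DM over EM was -1.27 for Pfkfb4 (-0.19 and -0.10 in labelled KO clones, 1.09 and 1.16 in WT clones), -0.72 for Slc16a3, 0.26 for Bnip3l and 0.21 for Ldha. None of these 4 differences passed edgeR's interaction test with the filter on low counts and no block. Pfkfb4 passed with the clone as a block (-1.273, adjusted p = 0.0255), without the filter (adjusted p = 1.07e-05) and in DESeq2 (adjusted p = 1.82e-05).

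Between uncloned lines and WT clones, the same difference was 0.44 for Higd1a, 0.39 for Pkm, 0.37 for Eno1, 0.35 for Ldha and 0.32 for Tpi1, with higher values in DM in the uncloned lines and lower ones in the WT clones. These differences lie across tables scaled apart and were not tested. Slc16a3 rests on 13 to 19 counts in labelled KO libraries.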

How the results depend on the processing

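Over all settings, 3780 member values stayed on their side of the threshold, 110 passed it newly, 164 no longer passed and 2 reversed. A reversal was counted only where the value passed in at least 1 of the 2 fits. Changes of sign between values that did not pass are therefore among the 3780. Both reversals were Pfkm over gland under total-count scaling, to 1.237 in DM and 1.905 in EM; that scaling shifts all genes upwards in organoids, and it left 0 members lower in DM. In DM against EM of uncloned lines it gave 1 member higher and 14 lower. Without the filter on low counts, more genes entered. Members lower than gland then numbered 2 in DM and 1 in EM (background 27% and 27.3% lower). Members lower in DM numbered 14 in WT clones (background 4.94%) and 6 in labelled KO clones (3.99%), where 2 were higher (5.16%). For labelled KO over WT, 16 members were lower in DM (5.24%) and 2 higher in EM (5.31%). The interaction had 1 member higher and 1 lower (0.548% and 1.79%). DESeq2 gave 11 members lower in WT clones in DM, 6 lower and 1 higher in labelled KO clones, 15 lower in labelled KO over WT in DM, and 1 lower in the interaction. Fits of only the groups compared gave 3 lower in WT clones (background 1.9%) and 2 lower in labelled KO over WT in DM (0.474%). Apart from fewer samples, the cause was not tested.

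With the clone as a replicate block, 12 members fell in WT clones, 1 rose in labelled KO clones and 1 was lower in the interaction. With the line as a block, uncloned DM against EM had 3 higher and 9 lower (background 16.9% and 13.7%), with Pfkfb4 and Eno1 no longer passing and Vegfa added. Labelled KO and WT clones share a number only: that block gave 18 lower in EM and 12 in DM (background 5.66% and 4.31%). Same-numbered clones did not deviate together (correlations within 0.023 of 0).

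Leaving out 1 library at a time, members lower numbered 0 to 9 in labelled KO over WT in DM and 2 to 18 in EM, 0 to 2 in labelled KO clones with DM, 1 to 6 in WT clones, 7 to 16 in uncloned lines (0 to 4 higher), and against gland 1 to 2 in DM and 0 to 1 in EM. Without division by length, differences in share were, in points, 18.81 (DM minus gland), 26.3 (EM minus gland) and -7.491 (DM minus EM) for Pfkp, -57.36, -56.6 and -0.7566 for Pfkm, 6.379 and 9.109 over gland for Aldoc, and 2.507 over gland and 2.133 over EM for Ldha. Slc16a3, Aldoc, Car9, Ankrd37 and Eno2 had 16 counts or fewer in each gland library, which limits their fold changes there.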
